A study of Mus musculus with 16 samples.

Results

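The 9 genes described here carry the dopamine signal inside striatal neurons, and they were followed across the genotypes of a Huntington's disease mouse study: the dopamine receptors Drd1, Drd2 and Drd3, the G protein subunits Gnal and Gng7, the adenylyl cyclase Adcy5, and the phosphoproteins Ppp1r1b (DARPP-32), Arpp19 and Arpp21. Every probe set that the platform annotation gives exactly 1 gene symbol, and that symbol one of these 9, was taken, which gave 21 of the 45101 probe sets on the array. Adcy5 had 4 probe sets, Arpp21 5, Arpp19 and Gnal 3 each, Drd1 2, and Drd2, Drd3, Gng7 and Ppp1r1b 1 each. Each probe set was tested on its own, and levels were not compared between probe sets.

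The study profiled total RNA of striatum on the Affymetrix whole-genome mouse array, in 16 samples of 4 genotypes with 4 biological replicates each. The genotypes were R6/2 x DREAM+/-, R6/2, DREAM+/- and wild type, and mice of all 4 are labelled as strain B6xCBA. R6/2 mice carry a transgene with the first exon of human huntingtin and an expanded CAG repeat under the human huntingtin promoter, so that the fragment is made throughout the body, and their disease is early and severe. DREAM+/- mice are labelled as heterozygous for a knockout of Kcnip3, the gene of DREAM (also called calsenilin), a calcium-binding repressor of transcription, and the crossed animals came from mating DREAM knockout with R6/2 mice. No group is labelled as a homozygous knockout or as drug-treated. The labels name striatal neurons as the cell type, but the RNA was extracted from the whole striatum. Neither the age of the mice nor their sex is given in the sources used here.

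In the striatum most neurons are medium spiny projection neurons, which carry either D1 receptors (the direct pathway) or D2 receptors (the indirect pathway). D1 receptors act through Golf, a G protein whose alpha subunit is encoded by Gnal and whose gamma subunit in striatum is encoded by Gng7, and Golf activates type 5 adenylyl cyclase, the main cyclase of these neurons, while D2 receptors act through Gi and inhibit it. The cyclic AMP that results activates protein kinase A, which phosphorylates DARPP-32, ARPP-19 and ARPP-21: phosphorylated DARPP-32 inhibits protein phosphatase 1, ARPP-19 becomes an inhibitor of protein phosphatase 2A once it is phosphorylated by the kinase MASTL, and ARPP-21 binds calmodulin when phosphorylated.

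DREAM binds a short element, the downstream regulatory element, whose core is GTCA. RefSeq promoter windows of 300 bases, from 250 before to 50 after each start, were available for 7 of the 9 genes: Drd1, Drd2, Drd3, Gng7, Adcy5, Arpp19 and Arpp21. Shown here are 5 of them, chosen so that both main receptors, the G protein, the cyclase and a kinase substrate are each represented by a gene that fell in R6/2 striatum. They are written 5′ to 3′ along the gene's strand in assembly GRCm38.p6, and capitals mark GTCA or its reverse complement TGAC. The Drd1 window is chr13:54055609-54055908 (minus strand), the Drd2 window chr9:49340153-49340452 (plus), the Gng7 window chr10:81014876-81015175 (minus), the Adcy5 window chr16:35154614-35154913 (plus) and the Arpp19 window chr9:75037364-75037663 (plus).
Drd1: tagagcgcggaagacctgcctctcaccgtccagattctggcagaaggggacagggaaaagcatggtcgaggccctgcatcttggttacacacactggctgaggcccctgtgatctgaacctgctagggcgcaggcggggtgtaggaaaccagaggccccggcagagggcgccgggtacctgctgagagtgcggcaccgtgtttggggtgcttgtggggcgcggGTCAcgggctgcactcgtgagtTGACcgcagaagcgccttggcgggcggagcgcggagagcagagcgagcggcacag
Drd2: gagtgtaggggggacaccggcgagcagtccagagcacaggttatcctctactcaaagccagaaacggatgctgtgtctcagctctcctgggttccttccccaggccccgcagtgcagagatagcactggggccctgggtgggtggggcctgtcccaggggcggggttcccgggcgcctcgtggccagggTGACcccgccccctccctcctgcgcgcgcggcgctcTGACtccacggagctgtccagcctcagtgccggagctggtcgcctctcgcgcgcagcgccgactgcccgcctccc
Gng7: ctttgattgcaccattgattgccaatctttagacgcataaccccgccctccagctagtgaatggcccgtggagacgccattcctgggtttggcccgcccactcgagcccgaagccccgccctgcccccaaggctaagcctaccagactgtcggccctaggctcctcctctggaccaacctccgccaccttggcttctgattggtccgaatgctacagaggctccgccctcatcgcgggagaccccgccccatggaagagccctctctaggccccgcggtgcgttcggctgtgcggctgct
Adcy5: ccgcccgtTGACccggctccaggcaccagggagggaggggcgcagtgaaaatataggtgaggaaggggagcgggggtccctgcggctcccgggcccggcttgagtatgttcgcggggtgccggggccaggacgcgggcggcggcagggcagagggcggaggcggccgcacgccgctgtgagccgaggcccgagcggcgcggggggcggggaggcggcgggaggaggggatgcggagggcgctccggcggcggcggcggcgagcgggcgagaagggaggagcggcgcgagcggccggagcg
Arpp19: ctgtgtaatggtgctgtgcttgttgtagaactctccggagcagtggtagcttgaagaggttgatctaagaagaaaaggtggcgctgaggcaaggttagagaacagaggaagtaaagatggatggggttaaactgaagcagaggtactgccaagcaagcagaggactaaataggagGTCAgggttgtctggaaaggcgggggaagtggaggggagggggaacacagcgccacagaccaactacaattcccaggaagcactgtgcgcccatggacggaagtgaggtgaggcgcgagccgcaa
The core stood 2 times in the Drd1 window, 2 times in the Drd2 window, 1 time each in the Adcy5 and Arpp19 windows and 3 times in the Arpp21 window, and these letters were not in the Gng7 and Drd3 windows. A match of 4 letters is common: 85.23% of the 32851 mouse windows of the same length hold GTCA on either strand. The cyclic AMP response element half-site TGACG (20.81% of windows), the full element TGACGTCA (1.79%) and the EGR site GCGNGGGCG (5.552%) were searched on both strands and were in none of the 7 windows. TGACG contains TGAC, so each half-site would also count as a core. GC content was 65.67% in the Drd1 window, 70.33% in Drd2, 79.0% in Adcy5, 53.67% in Arpp19, 40.67% in Arpp21, 63.67% in Gng7 and 42.0% in Drd3, against a median of 52.67% over all windows.

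Across the series, array medians lay between 6.54 and 6.58 (log2) and replicates of a genotype correlated at 0.9903 to 0.998 over all 45101 probe sets. Kcnip3 was lower in both groups labelled DREAM+/-, where its 2 probe sets gave log2 changes of -1.90 and -2.95 for DREAM+/- against wild type, and of -1.55 and -2.59 for R6/2 x DREAM+/- against R6/2. These leave 26.9% and 13.0% of the wild-type level and 34.1% and 16.6% of the R6/2 level, less than a heterozygous loss would leave if both copies were equally active, and the position of the probes relative to the deleted part was not analysed here. The groups are therefore named as labelled. R6/2 x DREAM+/- replicate 3 stood somewhat apart, with a mean correlation of 0.9915 with its group where the other 3 had 0.9945 to 0.9952. Within wild type, replicate 3 had the lowest mean correlation, 0.9933, where the other 3 had 0.994 to 0.9959. Both sets of values are over the single-symbol probe sets. R6/2 replicate 1 read 6.49 for Xist, the transcript of the inactive X chromosome, whereas the remaining arrays of the series read 11.04 to 12.16. Of 14 medium spiny neuron markers outside the 9 genes that were looked for, 12 had a single-symbol probe set. All 12 were bright, with a mean level per array of 11.04 to 11.81. Of the 21 probe sets, 17 reached the brightness of the 40th percentile of all probe sets (5.944), and the 4 below it were the Drd3 probe set, Adcy5 1439829_at and 1443080_at, and Gnal 1446359_at. Precision is limited by the number of arrays, 4 for each genotype.

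The R6/2 transgene came with lower levels of most of these genes. In R6/2 against wild-type striatum, 14 of the 21 probe sets were lower, 0 were higher and 7 did not pass (limma, Benjamini-Hochberg adjusted p under 0.05 over 34945 probe sets). Of all probe sets, 13.2% passed in either direction and 6.42% were lower. The 21 had a median log2 change of -0.33, against 0.025 over all probe sets. In 14 of them all 4 R6/2 arrays lay below all 4 wild-type arrays, which holds for 7.91% of all probe sets. Of the 17 bright probe sets 14 passed, all of them lower, against 17.5% of the bright probe sets of the array that passed in either direction. By the brightest probe set of each gene, 7 of the 9 genes were lower and 0 higher, against 7.44% lower and 8.22% higher over 18193 genes. Without R6/2 replicate 1 and R6/2 x DREAM+/- replicate 3, 13 of the 21 passed.

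On the DREAM+/- background the groups compared were other arrays, although all 16 share the estimate of spread. In R6/2 x DREAM+/- against DREAM+/- striatum, 12 of the 21 probe sets were lower, 1 was higher and 8 did not pass, against 6.93% of all probe sets passing in either direction and 4.01% being lower. The median change was -0.26 (log2) over the 21 and 0.01 over all probe sets. In 12 of the 21, R6/2 x DREAM+/- arrays lay wholly below DREAM+/- arrays, against 5.81% of all probe sets, and 12 of the 17 bright ones passed, all of them lower, against 9.81% of bright probe sets that passed. Of the 9 genes by their brightest probe set, 8 were lower and 0 higher, against 4.71% lower and 3.63% higher over all genes. Without DREAM+/- replicate 2, or without DREAM+/- replicate 3, the number that passed was 8 in place of 13. Without R6/2 replicate 1 and R6/2 x DREAM+/- replicate 3 it was 13, and with only the compared groups in the fit it was 9.

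Markers of the same neurons fell alongside. Of the 12 medium spiny neuron markers, among them Rgs9 and Pde10a, 8 were lower and 1 was higher in R6/2 against wild type, and the mean over the 12 ran from 11.14 to 11.34 per R6/2 array, against 11.75 to 11.81 per wild-type array. On the DREAM+/- background 8 of the 12 were lower, with array means of 11.04 to 11.35 in R6/2 x DREAM+/- and 11.67 to 11.74 in DREAM+/-. Penk, the enkephalin precursor of indirect pathway neurons, averaged 12.36 ± 0.08 in R6/2 and 13.26 ± 0.05 in wild type, and it passed. Tac1, the substance P precursor of direct pathway neurons, averaged 12.65 ± 0.07 in R6/2 and 12.61 ± 0.05 in wild type (SD, n = 4 each, log2) and did not pass. Pdyn, another peptide gene of direct pathway neurons, averaged 7.83 ± 0.14 in R6/2 and 8.50 ± 0.04 in wild type, and it passed as lower. It was also lower in R6/2 x DREAM+/- (7.49) against DREAM+/- (8.17). Of 8 pan-neuronal markers 1 was lower and 1 higher in R6/2 against wild type, with array means of 12.11 to 12.20 in R6/2 and 12.15 to 12.23 in wild type. Markers of other neurons also fell in that comparison. Of 9 striatal interneuron markers 4 were lower, and of 8 cortical projection neuron markers 5, with 0 higher in either list. On the DREAM+/- background 6 and 0 were lower. In bulk tissue, fewer medium spiny neurons and less RNA per neuron cannot be told apart, and the part that the cell make-up has in these results was not tested.

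**Figure D1:**
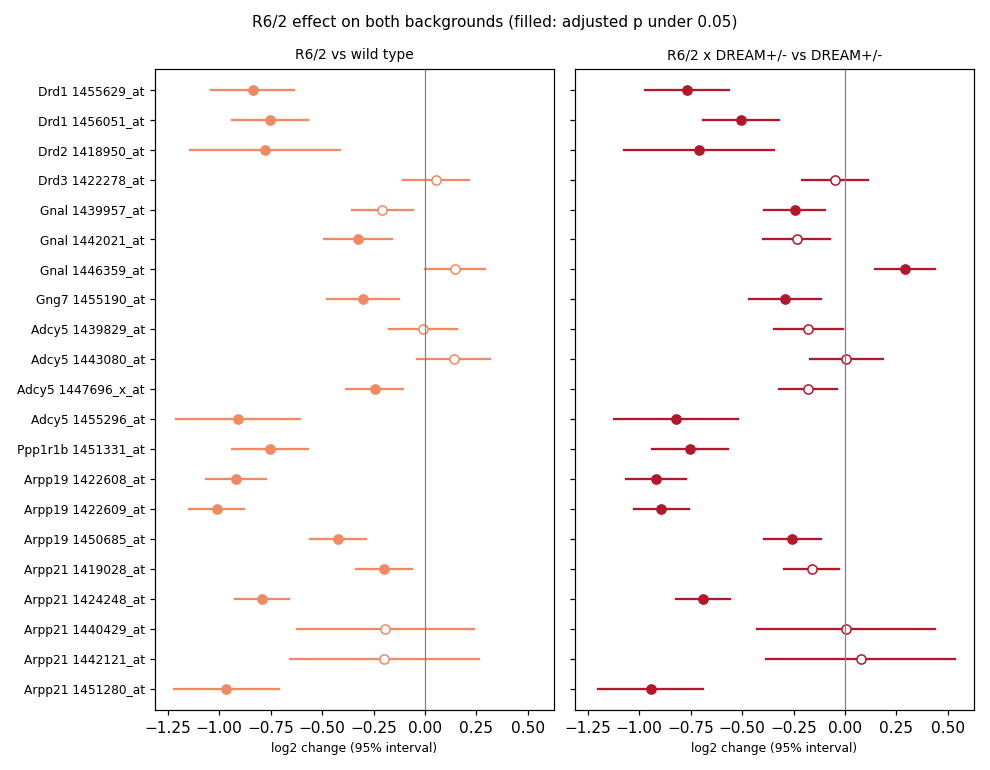
Log2 change (horizontal axis, point with 95% interval from limma) of each of the 21 probe sets in R6/2 against wild type (left panel) and in R6/2 x DREAM+/- against DREAM+/- (right panel); filled points have an adjusted p under 0.05. Filled points to the left of 0 number 14 on the left and 12 on the right, and 1 filled point on the right, the dim Gnal 1446359_at, lies above 0.

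Drd1 encodes the D1 receptor of direct pathway neurons. Its brighter probe set, 1456051_at, read 10.99, 10.82, 10.92 and 10.87 in R6/2 striatum, against 11.53, 11.61, 11.84 and 11.64 in wild type (log2 level). It read 10.83, 11.23, 11.24 and 11.20 in R6/2 x DREAM+/-, against 11.51, 11.72, 11.65 and 11.64 in DREAM+/-. All 8 arrays with the transgene lay below all 8 without it, and 1 R6/2 x DREAM+/- array, replicate 1, was as low as the R6/2 arrays while the other 3 were higher. The change was -0.76 in R6/2 against wild type (95% interval -0.94 to -0.57, limma adjusted p = 2.89e-05), which leaves 59.2% of the wild-type level, and -0.51 in R6/2 x DREAM+/- against DREAM+/- (-0.69 to -0.32, adjusted p = 0.00184), which leaves 70.5%. The other probe set, 1455629_at, gave -0.84 (adjusted p = 2.63e-05) and -0.77 (adjusted p = 0.000126).

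The 2 Drd1 probe sets differed in how the crossed animals compared with R6/2. On 1455629_at the R6/2 x DREAM+/- arrays read 10.57, 10.90, 10.95 and 10.45, against 10.82, 10.71, 10.79 and 10.79 in R6/2, and the change was -0.06 (-0.26 to 0.14, adjusted p = 0.763). On 1456051_at it was 0.23 (0.04 to 0.41, adjusted p = 0.128), and leaving out R6/2 x DREAM+/- replicate 1 gave 0.32 with an adjusted p of 0.0174. In the order of group means, wild type and DREAM+/- stood highest on both probe sets with overlapping ranges. R6/2 and R6/2 x DREAM+/- stood lowest, also with overlapping ranges, and changed places between the 2 probe sets.

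Drd2 encodes the D2 receptor of indirect pathway neurons. Its probe set, 1418950_at, read 10.06, 9.99, 9.98 and 10.08 in R6/2, against 10.69, 10.91, 10.49 and 11.13 in wild type. It read 9.63, 9.73, 10.51 and 9.47 in R6/2 x DREAM+/-, against 10.62, 10.63, 10.59 and 10.34 in DREAM+/-. The R6/2 arrays lay together and below each wild-type array, whereas R6/2 x DREAM+/- replicate 3 lay among the DREAM+/- arrays and the other 3 of its group lay below every other array. The change was -0.78 in R6/2 against wild type (-1.14 to -0.41, adjusted p = 0.00604; 58.3% of the wild-type level) and -0.71 in R6/2 x DREAM+/- against DREAM+/- (-1.07 to -0.35, adjusted p = 0.0182; 61.1%).

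The second of these depended on single arrays. It did not pass in 5 of the 16 fits that left out 1 array (R6/2 x DREAM+/- replicates 1 and 4 and DREAM+/- replicates 1, 2 and 3; highest adjusted p = 0.063), and without R6/2 x DREAM+/- replicate 3 it was -0.94 (adjusted p = 8.89e-05). R6/2 x DREAM+/- differed from R6/2 by -0.19 (-0.56 to 0.17, adjusted p = 0.549), and without replicate 3 by -0.42 (adjusted p = 0.03). Drd2 means stood in the order wild type, DREAM+/-, R6/2, R6/2 x DREAM+/-, with a gap between ranges only from DREAM+/- to R6/2.

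Drd3 encodes the D3 receptor, which is found mainly in the ventral striatum and the islands of Calleja. Its probe set, 1422278_at, read 4.09 to 4.39 in R6/2 x DREAM+/-, 4.28 to 4.46 in R6/2, 4.18 to 4.47 in DREAM+/- and 4.17 to 4.37 in wild type, so all 4 ranges overlapped. These readings are below the brightness threshold, and the change of 0.05 in R6/2 against wild type (-0.11 to 0.21, adjusted p = 0.717) gives no measure of the receptor's level.

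**Figure D2:**
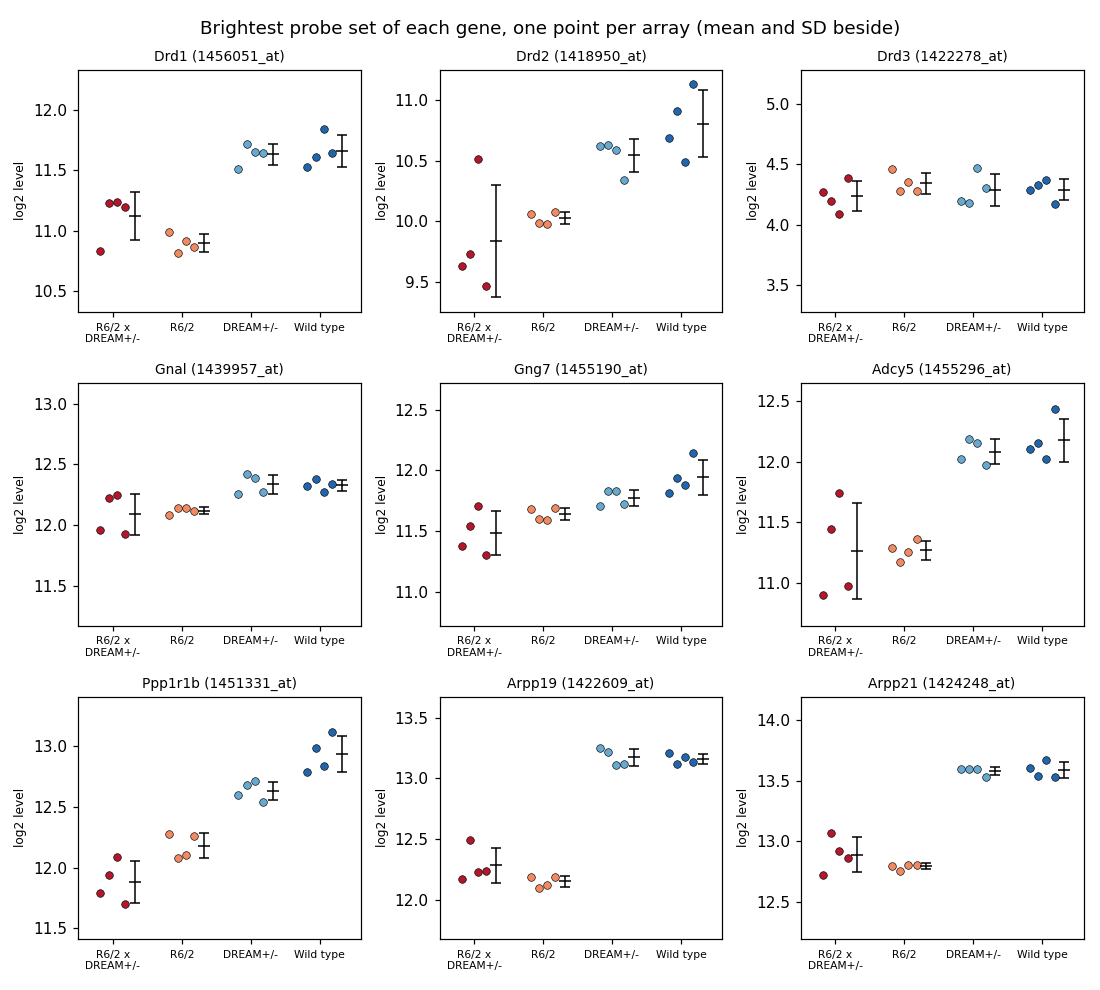
Log2 level (vertical axis) of the brightest probe set of each of the 9 genes in the 16 arrays, 1 point per array, grouped by genotype from R6/2 x DREAM+/- on the left to wild type on the right, with the mean and SD beside each group. Apart from Drd3, the groups with the R6/2 transgene have the lower means in each panel; the Drd2 panel shows R6/2 x DREAM+/- replicate 3 at 10.51, above the 9.47 to 9.73 of the rest of its group.

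Gnal and Gng7, the alpha and gamma subunits of Golf, had changes closer to 0 than those of Drd1 and Drd2. The brightest probe set of Gnal, 1439957_at, read 12.08, 12.14, 12.14 and 12.12 in R6/2, against 12.32, 12.38, 12.27 and 12.34 in wild type. It read 11.96, 12.22, 12.25 and 11.93 in R6/2 x DREAM+/-, against 12.26, 12.42, 12.39 and 12.27 in DREAM+/-. Each R6/2 array lay below each wild-type array, and each R6/2 x DREAM+/- array lay below each DREAM+/- array, though the nearest pair almost met (12.25 and 12.26). The change was -0.21 in R6/2 against wild type (-0.35 to -0.06), which did not pass (adjusted p = 0.0599; it did in 8 of 26 other fits), and -0.25 in R6/2 x DREAM+/- against DREAM+/- (-0.39 to -0.10), which did (adjusted p = 0.0427).

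On the other bright Gnal probe set, 1442021_at, the calls were the other way round. It read 11.03, 10.94, 10.96 and 11.03 in R6/2, against 11.22, 11.27, 11.27 and 11.50 in wild type, a change of -0.33 (-0.49 to -0.16, adjusted p = 0.00983; 79.8% of the wild-type level). The change of -0.24 in R6/2 x DREAM+/- against DREAM+/- did not pass (-0.40 to -0.07, adjusted p = 0.0834). The R6/2 x DREAM+/- arrays read 10.90, 11.24, 11.00 and 10.94 and overlapped the DREAM+/- arrays at 11.15 to 11.38 through replicate 2. Of the 4 values for these 2 probe sets, that of 1442021_at in R6/2 against wild type passed in each fit tried. The value of 1439957_at on the DREAM+/- background missed the threshold in 12 of the 16 fits without 1 array.

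The dim Gnal probe set, 1446359_at, was higher in R6/2 x DREAM+/- (5.44, 5.47, 5.51 and 5.35) than in DREAM+/- (5.25, 4.99, 5.09 and 5.27), by 0.29 (adjusted p = 0.0165), a call that was lost without DREAM+/- replicate 2 or without replicate 3 (adjusted p up to 0.0695). It stood below the brightness threshold in every array and was the 1 member that rose with the transgene. Where on the transcript each Gnal probe set lies was not analysed here.

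Gng7 1455190_at read 11.68, 11.60, 11.59 and 11.69 in R6/2, against 11.81, 11.94, 11.88 and 12.14 in wild type, and 11.38, 11.54, 11.71 and 11.30 in R6/2 x DREAM+/-, against 11.71, 11.83, 11.83 and 11.72 in DREAM+/-. No R6/2 array reached the wild-type range, and 1 R6/2 x DREAM+/- array, replicate 3, equalled the lowest DREAM+/- array. The change was -0.30 in R6/2 against wild type (-0.48 to -0.13, adjusted p = 0.0221) and -0.29 in R6/2 x DREAM+/- against DREAM+/- (-0.47 to -0.11, adjusted p = 0.0439). The first missed the threshold without R6/2 replicate 2, R6/2 replicate 3 or wild-type replicate 4 (adjusted p up to 0.0668), and the second in 12 of the 16 fits without 1 array (up to 0.131). The Gng7 means stood in the order wild type, DREAM+/-, R6/2, R6/2 x DREAM+/-, and the ranges of neighbours overlapped except between DREAM+/- and R6/2.

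Adcy5, the cyclase that Golf activates, fell on its brightest probe set on both backgrounds. That probe set, 1455296_at, read 11.29, 11.17, 11.25 and 11.36 in R6/2, against 12.10, 12.15, 12.02 and 12.43 in wild type. It read 10.90, 11.44, 11.74 and 10.97 in R6/2 x DREAM+/-, against 12.02, 12.19, 12.15 and 11.97 in DREAM+/-. The groups with and without the transgene did not overlap, and the R6/2 x DREAM+/- arrays were spread more widely (SD 0.40) than the R6/2 arrays (SD 0.08). The change was -0.91 in R6/2 against wild type (-1.21 to -0.61, adjusted p = 0.000396; 53.3% of the wild-type level) and -0.82 in R6/2 x DREAM+/- against DREAM+/- (-1.12 to -0.52, adjusted p = 0.00183; 56.6%).

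A further bright Adcy5 probe set, 1447696_x_at, fell by much less. It read 10.01, 9.84, 9.89 and 10.16 in R6/2, against 10.18, 10.31, 10.17 and 10.22 in wild type, a change of -0.25 (-0.38 to -0.11, adjusted p = 0.0202), and missed the threshold without R6/2 replicate 2, R6/2 replicate 3 or wild-type replicate 2 (adjusted p up to 0.0685). In R6/2 x DREAM+/- against DREAM+/- it changed by -0.18 (-0.32 to -0.04, adjusted p = 0.125). The suffix x marks a probe set whose probes can also bind other transcripts. The dim 1439829_at and 1443080_at gave -0.01 and 0.14 in R6/2 against wild type and did not pass. Of the 4 Adcy5 probe sets, then, 2 fell in R6/2 against wild type, and the 2 that did not pass are the dim ones.

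Ppp1r1b encodes DARPP-32, which is enriched in medium spiny neurons of both pathways. Its probe set, 1451331_at, read 12.28, 12.08, 12.10 and 12.26 in R6/2, against 12.79, 12.99, 12.84 and 13.12 in wild type. It read 11.79, 11.94, 12.09 and 11.70 in R6/2 x DREAM+/-, against 12.60, 12.68, 12.71 and 12.54 in DREAM+/-. The 4 genotypes stood in steps, with wild type highest, then DREAM+/-, then R6/2 and then R6/2 x DREAM+/-, and the ranges of neighbouring groups did not overlap except between R6/2 and R6/2 x DREAM+/-, which met at 12.08 and 12.09. The change with the transgene was -0.76 in R6/2 against wild type (-0.94 to -0.57, adjusted p = 2.85e-05) and -0.75 in R6/2 x DREAM+/- against DREAM+/- (-0.94 to -0.57, adjusted p = 6.09e-05), which leaves 59.2% and 59.4% of the level without it. Both passed in each fit that left out 1 array.

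Ppp1r1b was also lower with the DREAM+/- label among R6/2 mice. The change was -0.30 in R6/2 x DREAM+/- against R6/2 (-0.48 to -0.12, adjusted p = 0.0456; 81.2% of the R6/2 level) and -0.30 in DREAM+/- against wild type (-0.49 to -0.12; 81.1%), of which the second did not pass (adjusted p = 0.0866). Both lie close to the threshold. The first failed in 12 of the 16 fits without 1 array, with an adjusted p of up to 0.124, and the second passed without R6/2 x DREAM+/- replicate 3 (adjusted p = 0.0437). The interval of each covers sizes from about 0.12 to 0.49 below.

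Arpp19 encodes ARPP-19 and held the lowest of the 21 changes in R6/2 against wild type. Its brightest probe set, 1422609_at, read 12.19, 12.10, 12.12 and 12.19 in R6/2, against 13.21, 13.12, 13.18 and 13.14 in wild type. It read 12.17, 12.49, 12.23 and 12.24 in R6/2 x DREAM+/-, against 13.25, 13.22, 13.11 and 13.12 in DREAM+/-. The arrays with the transgene and those without it were separated by a wide gap, from 12.49 to 13.11. The change was -1.01 in R6/2 against wild type (-1.15 to -0.88, adjusted p = 1.46e-07; 49.6% of the wild-type level) and -0.89 in R6/2 x DREAM+/- against DREAM+/- (-1.03 to -0.76, adjusted p = 1.04e-06; 53.9%).

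The other Arpp19 probe sets moved the same way. On 1422608_at the values were -0.92 in both comparisons (adjusted p = 5.11e-07 in R6/2 against wild type and 2.03e-06 in R6/2 x DREAM+/- against DREAM+/-). On 1450685_at, where R6/2 read 11.43 to 11.51 and wild type 11.80 to 12.03, the change was smaller, -0.42 (adjusted p = 0.000321), and R6/2 x DREAM+/- at 11.47 to 11.72 against DREAM+/- at 11.78 to 11.88 gave -0.26 (adjusted p = 0.0234). The last of these missed the threshold in 5 of the 16 fits without 1 array (adjusted p up to 0.0797). Wild type and DREAM+/- had overlapping ranges on each Arpp19 probe set, as had R6/2 and R6/2 x DREAM+/-.

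Arpp21 encodes ARPP-21, also called the regulator of calmodulin signalling, and longer products with an R3H domain, and its probe sets fell into separate patterns. The brightest, 1424248_at, read 12.80, 12.76, 12.81 and 12.81 in R6/2, against 13.61, 13.54, 13.67 and 13.53 in wild type. It read 12.72, 13.07, 12.92 and 12.86 in R6/2 x DREAM+/-, against 13.60, 13.60, 13.60 and 13.53 in DREAM+/-. Arrays with and without the transgene did not overlap, and the change was -0.79 in R6/2 against wild type (-0.92 to -0.66, adjusted p = 6.73e-07; 57.7% of the wild-type level) and -0.69 in R6/2 x DREAM+/- against DREAM+/- (-0.82 to -0.56, adjusted p = 6.43e-06). On 1451280_at the changes were -0.97 (adjusted p = 6.5e-05) and -0.95 (adjusted p = 0.000153). On 1419028_at they were -0.20 (adjusted p = 0.049, lost in 10 of the 16 fits without 1 array) and -0.16 (adjusted p = 0.159).

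On the remaining Arpp21 probe sets the transgene made no difference that passed, whereas they were higher with the DREAM+/- label among R6/2 mice. 1442121_at read 8.77, 9.06, 8.87 and 8.67 in R6/2 x DREAM+/-, against 7.62, 8.42, 8.04 and 7.39 in R6/2. It read 8.78, 8.86, 8.70 and 8.72 in DREAM+/-, against 8.14, 7.50, 8.73 and 7.89 in wild type. The groups labelled DREAM+/- lay close together (SD 0.17 and 0.07), and the other groups were lower on average and widely spread (SD 0.46 and 0.52), with wild-type replicate 3 as high as the DREAM+/- arrays. The change was 0.98 in R6/2 x DREAM+/- against R6/2 (0.52 to 1.43, adjusted p = 0.0128), and it passed in each fit tried (adjusted p of at most 0.0479). In DREAM+/- against wild type it was 0.70 (0.24 to 1.16) and did not pass (adjusted p = 0.116), but without wild-type replicate 3 it was 0.92 with an adjusted p of 0.00963.

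The dimmer 1440429_at followed the same order. It read 6.77, 7.04, 6.26 and 6.29 in R6/2 x DREAM+/-, against 5.38, 6.27, 6.06 and 5.70 in R6/2, and 6.42, 6.69, 6.53 and 6.70 in DREAM+/-, against 5.95, 5.76, 6.57 and 5.90 in wild type. The ranges of R6/2 x DREAM+/- and R6/2 met at 6.26 and 6.27. The R6/2 mean, 5.85, lies below the brightness threshold of 5.944, so that group was close to background and the size of the change is uncertain. The change was 0.74 in R6/2 x DREAM+/- against R6/2 (0.31 to 1.17, adjusted p = 0.0364), which missed the threshold in 4 of the 16 fits without 1 array (adjusted p up to 0.116), and 0.54 in DREAM+/- against wild type (0.11 to 0.97, adjusted p = 0.22), which passed without wild-type replicate 3 (0.72, adjusted p = 0.0486). The 3 other Arpp21 probe sets changed by 0.10, 0.05 and -0.03 in R6/2 x DREAM+/- against R6/2, and none of these passed.

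Markers of cortical projection neurons moved with the same comparison. Of 8 such genes, 5 were higher in R6/2 x DREAM+/- against R6/2 and 0 in DREAM+/- against wild type. Over all genes, 7.64% and 2.10% passed in either direction in these comparisons. Their mean per array was 8.08 to 8.40 in R6/2 x DREAM+/- and 7.55 to 7.93 in R6/2, and 8.22 to 8.40 in DREAM+/- and 8.12 to 8.35 in wild type. In replicate order, the cortical marker means were 7.55, 7.88, 7.93 and 7.78 in R6/2 and 8.24, 8.35, 8.12 and 8.24 in wild type. In R6/2, replicates 2 and 3 were the highest on both this mean and Arpp21 1442121_at, while in wild type replicate 3 was the lowest on this mean and the highest on that probe set. In R6/2 x DREAM+/-, replicate 3 was the highest on this mean and replicate 2 on that probe set. In DREAM+/-, the highest were replicate 1 on this mean and replicate 2 on that probe set. In R6/2 against wild type, 5 of the 8 were lower. The part of cortical tissue in the Arpp21 values was not tested.

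**Figure D3:**
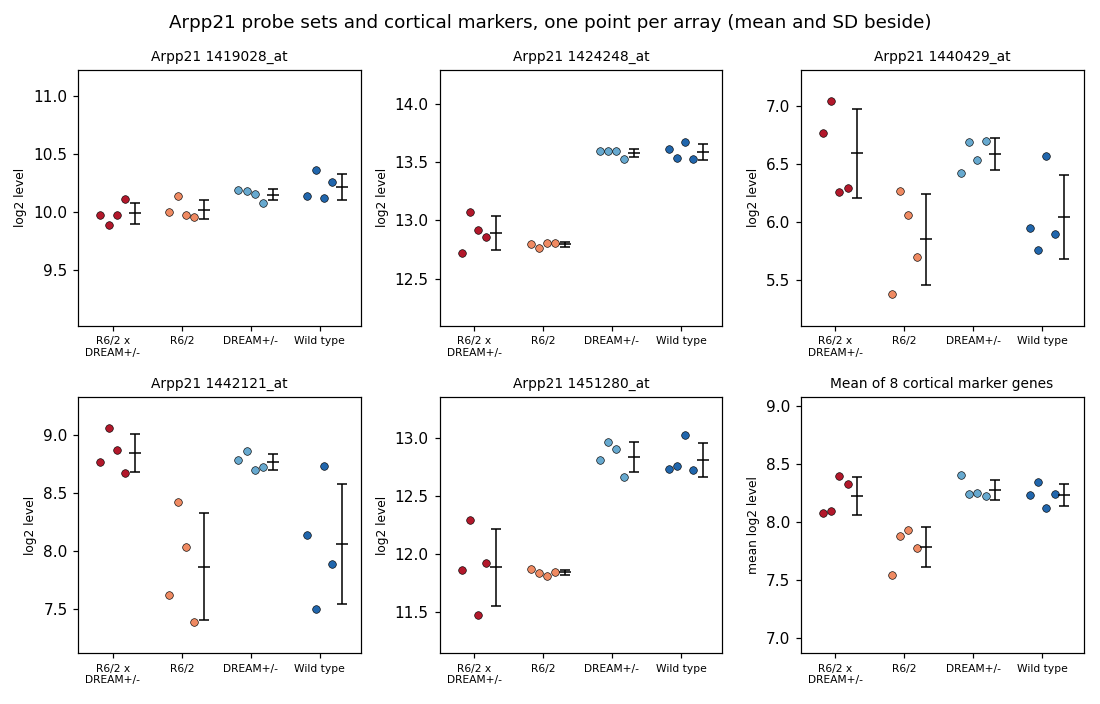
Log2 level (vertical axis) of the 5 Arpp21 probe sets and the mean log2 level of 8 cortical marker genes in the 16 arrays, 1 point per array, grouped by genotype from R6/2 x DREAM+/- on the left to wild type on the right, with the mean and SD beside each group. On 1424248_at and 1451280_at the groups with the transgene lie low, while on 1440429_at and 1442121_at the groups labelled DREAM+/- lie high; R6/2 has the lowest cortical marker mean, 7.55 to 7.93.

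The comparisons of DREAM genotype ask whether heterozygosity for the repressor's knockout changes these genes without and with the disease transgene. In DREAM+/- against wild type, 0 of the 21 probe sets passed by limma, against 2.26% of all probe sets and 2.10% of genes by their brightest probe set that passed. An unadjusted p under 0.05 was found for 4 of the 21, against 4896 of all 34945 probe sets. The 21 changes ran from -0.30 (Ppp1r1b) to 0.70 (Arpp21 1442121_at), with a median of -0.03, against -0.02 over all probe sets. Leaving out wild-type replicate 3 brought 2 across the threshold, both of Arpp21, and leaving out R6/2 x DREAM+/- replicate 3 brought 1, Ppp1r1b. For Drd1 the intervals were -0.33 to 0.07 (1455629_at) and -0.21 to 0.16 (1456051_at). They were -0.62 to 0.10 for Drd2 and -0.39 to 0.21 for Adcy5 1455296_at. The estimated changes with the transgene lie outside the interval of the same probe set. For Drd2, however, the intervals of those changes, -1.14 to -0.41 and -1.07 to -0.35, overlap the interval given here.

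In R6/2 x DREAM+/- against R6/2, 3 of the 21 probe sets passed, against 7.76% of all probe sets. Ppp1r1b was the 1 that was lower (4.22% of all probe sets were) and the Arpp21 probe sets 1440429_at and 1442121_at were the 2 that were higher (3.53% were). By the brightest probe set, 1 of the 9 genes passed, against 7.64% of genes. With so few members past the threshold, their share is not far from that background. Leaving out R6/2 x DREAM+/- replicate 2, R6/2 replicate 1 or R6/2 replicate 4 left 1 that passed, and leaving out R6/2 x DREAM+/- replicate 3 gave 4. The median of the 21 was 0.02, against -0.03 over all probe sets.

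**Figure D4:**
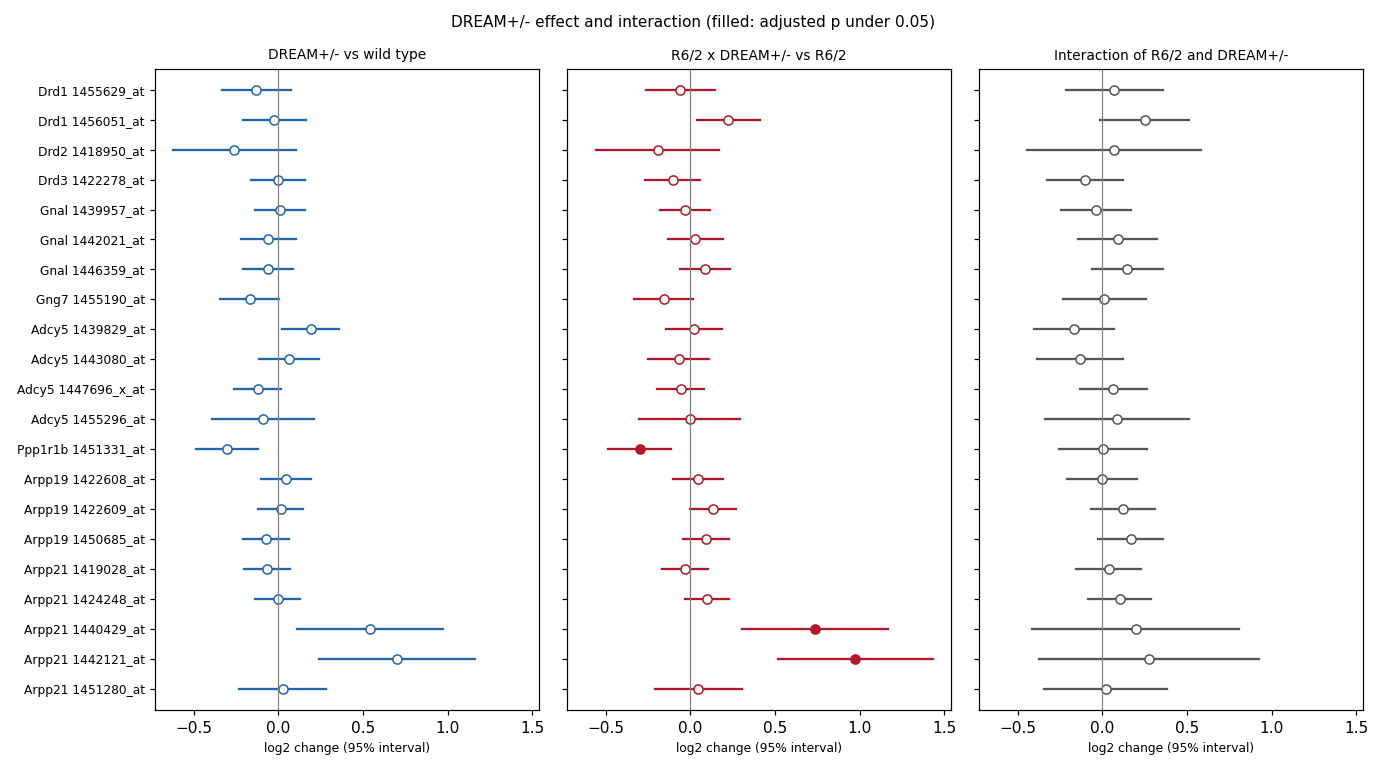
Log2 change (horizontal axis, point with 95% interval from limma) of the 21 probe sets in DREAM+/- against wild type (left), R6/2 x DREAM+/- against R6/2 (middle) and the interaction, which is the R6/2 effect on the DREAM+/- background minus that on the wild-type background (right); filled points have an adjusted p under 0.05. There are 0 filled points in the left and right panels and 3 in the middle, Ppp1r1b below 0 and Arpp21 1440429_at and 1442121_at above it.

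Whether the effect of the transgene depends on the DREAM genotype was tested by the interaction, the change in R6/2 x DREAM+/- against DREAM+/- minus the change in R6/2 against wild type. For 0 of the 21 probe sets did it pass by limma, and 0 had an unadjusted p under 0.05; over all 34945 probe sets 0.00% passed, and 2121 had an unadjusted p under 0.05. The lowest adjusted p among the 21 was 0.829, for Drd1 1456051_at, whose interaction was 0.25 (-0.01 to 0.51). It was 0.07 for Drd2 (-0.45 to 0.58), 0.09 for Adcy5 1455296_at (-0.34 to 0.51), 0.003 for Ppp1r1b (-0.26 to 0.26) and 0.12 for Arpp19 1422609_at (-0.07 to 0.31). These intervals leave room for a difference in either direction, most of all for Drd2.

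The crossed animals were also set against wild type. In R6/2 x DREAM+/- against wild type, 15 of the 21 probe sets were lower, 2 were higher and 4 did not pass, against 15.6% of all probe sets passing and 8.50% being lower. The lowest was Ppp1r1b at -1.06 (-1.24 to -0.87, adjusted p = 9.95e-07), which leaves 48.1% of the wild-type level. Drd2 changed by -0.97 (adjusted p = 0.000988; 51.1%), Adcy5 1455296_at by -0.91 (adjusted p = 0.000335), Drd1 by -0.90 and -0.53 on its 2 probe sets (adjusted p = 1.09e-05 and 0.000552) and Gng7 by -0.46 (adjusted p = 0.00112; 72.7%). The 2 that were higher were Arpp21 1442121_at (0.78, adjusted p = 0.0216) and the dim Gnal 1446359_at (0.23, adjusted p = 0.0331). This comparison shares its arrays with those above and is not further evidence for them.

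Other genes of the pathway were counted from lists, each gene by its brightest probe set. Over all genes, 7.44% were lower and 8.22% higher in R6/2 against wild type. On the DREAM+/- background the shares were 4.71% and 3.63%, and short lists with 1 or 2 genes passing are not far from these. Of 17 G protein subunits and their partners, 5 were lower and 3 higher in R6/2 against wild type, and 5 and 2 in R6/2 x DREAM+/- against DREAM+/-. Rgs9, which speeds the shut-off of Gi and Go signals in these neurons, changed by -0.82 (adjusted p = 8.34e-05) and -0.80 (adjusted p = 0.000205) in these comparisons. Its partner Gnb5 changed by -0.45 and -0.42, and Ric8b, a chaperone of the Golf alpha subunit, by -0.31 and -0.27, all of which passed. Gnas, which encodes the related Gs alpha subunit, changed by 0.17 (adjusted p = 0.0907) and -0.02 (adjusted p = 0.94). Gnb1, a beta subunit, fell by 0.94 in DREAM+/- against wild type (adjusted p = 0.0217), and R6/2 x DREAM+/- against R6/2 gave -0.21 (adjusted p = 0.589).

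A list of 9 genes held other adenylyl cyclases and the receptor gene Adcyap1r1. Of these 9, 2 were lower and 0 higher in R6/2 against wild type, and 1 and 0 on the DREAM+/- background. Adcy9 passed in both, at -0.31 and -0.26. Of 8 striatal phosphodiesterases, which break down cyclic nucleotides, 5 were lower and 1 higher in R6/2 against wild type, and 4 and 1 on the DREAM+/- background. Pde10a changed by -0.60 and -0.40, Pde1b by -0.57 and -0.59 and Pde7b by -0.59 and -0.51, each past the threshold. Transcripts of Adcy5 and of several phosphodiesterases were thus lower in the same arrays, while that of Pde4d was higher in both comparisons.

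Of 11 protein kinase A subunits and anchors, 1 was lower and 3 were higher in R6/2 against wild type, and 0 and 1 on the DREAM+/- background. The regulatory subunit gene Prkar1b changed by 0.22 (adjusted p = 0.0283) and 0.15 (adjusted p = 0.182). Of 22 genes listed as phosphatases, kinases, their regulators or relatives of the phosphoproteins, 6 were lower and 0 higher in both comparisons. Ppp1r1a, the inhibitor-1 relative of DARPP-32, changed by -0.85 (adjusted p = 7.25e-07) and -0.73 (adjusted p = 8.83e-06). Ppp1ca, a catalytic subunit of protein phosphatase 1, changed by -0.38 and -0.33, Ppp2r2a, a protein phosphatase 2A subunit of the type that ARPP-19 inhibits, by -0.35 and -0.39, and R3hdm1, a relative of Arpp21, by -0.40 and -0.29, all past the threshold. Ensa, the close relative of Arpp19, changed by 0.07 and 0.08 and Mastl by 0.06 and 0.03, and neither passed in these comparisons.

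Of 9 genes of dopamine synthesis, transport and breakdown, 2 were lower and 1 was higher in R6/2 against wild type, and 2 and 0 on the DREAM+/- background. Th, tyrosine hydroxylase, averaged 6.56 in R6/2 x DREAM+/- and 7.06 in DREAM+/-, a change of -0.50 (adjusted p = 0.000521), and the change in R6/2 against wild type was -0.17 (adjusted p = 0.142). In R6/2 x DREAM+/- against R6/2 Th changed by -0.26 (limma adjusted p = 0.0404). These Th levels are not far above the brightness threshold of 5.944. The interaction passed for 0 of the genes on these lists. Median changes over the lists in R6/2 against wild type lay between -0.32 (phosphodiesterases) and 0.06 (protein kinase A), against 0.03 over the brightest probe sets of all genes.

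**Figure D5:**
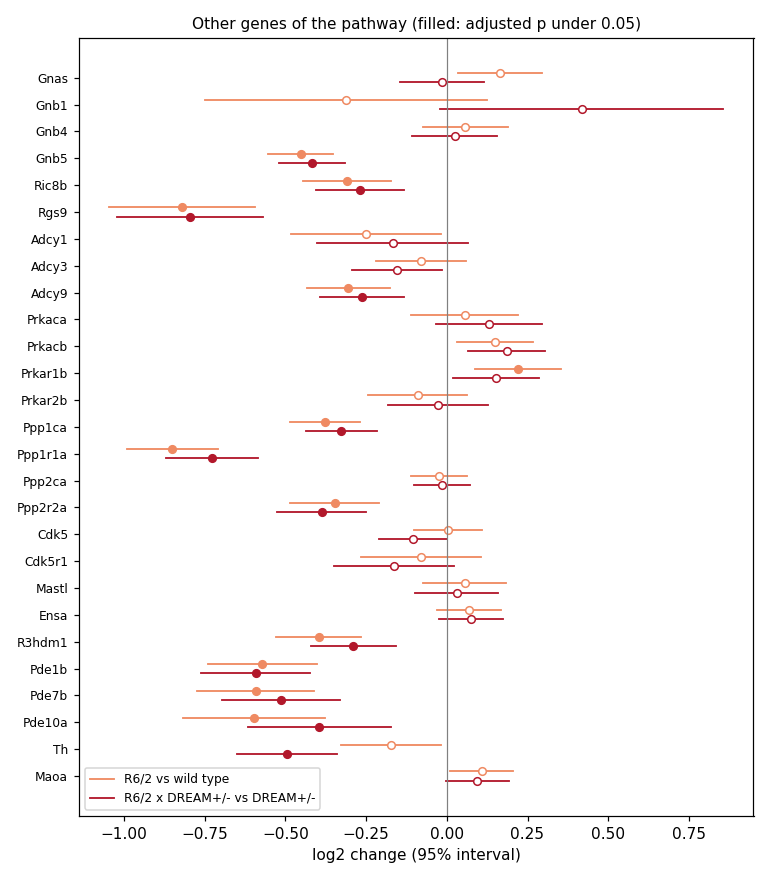
Log2 change (horizontal axis, point with 95% interval from limma) of 27 other genes of the pathway in R6/2 against wild type (orange) and in R6/2 x DREAM+/- against DREAM+/- (red), each by its brightest probe set; filled points have an adjusted p under 0.05. Rgs9 (-0.82 and -0.80) and Ppp1r1a (-0.85 and -0.73) lie furthest to the left, while Gnas, Mastl, Ensa and the protein kinase A catalytic subunits Prkaca and Prkacb do not lie below 0 with a filled point.

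For the brightest probe set of each gene, the 3 other genes with the most similar pattern were found by the root mean square difference of centred log2 values over the 16 arrays, among 23224 bright probe sets of other genes. Nearest to Adcy5 were Atp2b1 (0.0985), Rgs9 (0.111) and Tbc1d8 (0.115), and nearest to Ppp1r1b were Rgs9 (0.0887), Dbp (0.0887) and Itpka (0.0903). Nearest to Drd1 were Kalrn (0.109), Atp2b1 (0.11) and Dclk1 (0.111), and nearest to Drd2 were Rin1 (0.123), Sec14l1 (0.125) and Inf2 (0.125). These differences are to be read against the spread of each gene about its own mean, which was 0.476 for Adcy5, 0.421 for Ppp1r1b, 0.344 for Drd1 and 0.458 for Drd2. Arpp19 (spread 0.484) stood nearest to Chn1 (0.0822), Cnr1 (0.0999) and St8sia3 (0.102), and Arpp21 (0.379) to Asb11, Ccl25 and Rps6ka5 (0.0828 to 0.0902). Gnal (0.142) stood nearest to Mbtps1, Grm5 and Ckb (0.055 to 0.0583) and Gng7 (0.2) to Cracdl, Ttyh1 and Mgat4b (0.0477 to 0.0589). Rgs9 is the 1 gene that was among the 3 nearest of both the cyclase and DARPP-32, and Atp2b1 of both the cyclase and Drd1, there through different Atp2b1 probe sets.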

How the data were processed

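Expression was measured on 16 Affymetrix whole-genome mouse arrays, 4 per genotype, with genotypes and replicate numbers taken from the sample titles. The authors deposited normalized log2 levels, 1 per probe set and array; the submitters' processing notes name RMA and the affy package, and the sources used here give no settings or genome build. Values ran from 3.34 to 14.71. Gene names came from the platform annotation: of 45101, 34945 had 1 gene symbol, 932 several, 9160 none there and 64 were controls, and 99.42% of the single symbols were matched to a RefSeq gene table.

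All 34945 single-symbol probe sets entered 1 fit (limma 3.58.1, R 4.3.3; lmFit, then eBayes; 1 mean per genotype, all 16 arrays sharing 1 estimate of spread, no filter on brightness). Adjusted p-values (Benjamini-Hochberg, all of them together, per comparison) under 0.05 counted as passing. Percentages of a level are 2 to the power of the log2 change. The fit was tested on simulated data with known changes. Alternatives were a brightness filter, the brightest probe set per gene, all non-control probe sets, array weights and a trended robust variance. Also tried were a repeated quantile normalization, a shift to a common median, only the compared groups and a replicate block. Each array was left out in turn. R6/2 replicate 1 (low Xist) and R6/2 x DREAM+/- replicate 3 (lowest correlation in its group) were also left out together. Genes outside the 9 stand by their brightest probe set, and listed genes without a single-symbol probe set are not in the counts.

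The genes named are the 9, Kcnip3, a fixed set of pathway genes and, per gene, the 3 nearest patterns. Penk, Tac1 and genes named from marker lists were chosen after their values were seen. The members and lists were chosen with earlier results of these data known. Pathway and marker lists come from textbook knowledge; results of the marker lists for interneurons, glia, endothelium, choroid plexus, neighbouring forebrain and blood are given in the closing observations. Promoter windows are from RefSeq.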

Additional observations from a re-analysis of the deposited data

Results flagged for a closer look

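Within groups of 4 arrays, 84 sets of values (21 probe sets in 4 genotypes) were checked for a highest or lowest array whose gap to the next, divided by the group's range, exceeds Dixon's critical value of 0.829. Chance alone marks about 1 in 20 such sets, and 4 were marked. Drd1 1456051_at read 10.83 in R6/2 x DREAM+/- replicate 1, below the 11.20 to 11.24 of the others. Drd2 1418950_at read 10.34 in DREAM+/- replicate 4, below 10.59 to 10.63. Arpp21 1424248_at read 13.53 in DREAM+/- replicate 4, where the other 3 all read 13.60. Arpp21 1451280_at read 13.02 in wild-type replicate 3, above 12.72 to 12.76.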

How the results depend on the processing

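Each count and each of the 126 single changes (21 probe sets in 6 comparisons) was recomputed under 10 other settings and 16 fits that left out 1 array. Of the 47 changes that passed, 32 passed with the same sign under each alternative, 0 reversed, and of the 79 that did not pass 71 never did. With only the brightest probe set of each gene in the fit, 8 of the 9 genes passed in R6/2 against wild type, 8 in R6/2 x DREAM+/- against DREAM+/-, 1 in R6/2 x DREAM+/- against R6/2 and 8 in R6/2 x DREAM+/- against wild type, and over all genes 452 passed in DREAM+/- against wild type, 1614 in R6/2 x DREAM+/- against R6/2 and 3352 in R6/2 x DREAM+/- against wild type; these fits hold fewer probe sets. With array weights, 3741 of all probe sets passed in R6/2 x DREAM+/- against DREAM+/- (2420 without) and 1550 in DREAM+/- against wild type (790 without), where 2 of the 21 then passed. Without R6/2 replicate 1 and R6/2 x DREAM+/- replicate 3, 1 of the 21 passed in DREAM+/- against wild type. With only the compared groups in the fit, 1749 (of the 21, 1) passed in R6/2 x DREAM+/- against R6/2, against 2711 (3) with all groups, and 2785 against 5454 in R6/2 x DREAM+/- against wild type. With arrays shifted to a common median, 1 probe set passed in the interaction. For array weights and the median shift the cause was not tested. Leaving out 1 array at a time gave 3567 to 5423 of all probe sets and 11 to 15 of the 21 in R6/2 against wild type, 1372 to 2875 and 8 to 13 in R6/2 x DREAM+/- against DREAM+/-, 423 to 1403 and 0 to 2 in DREAM+/- against wild type, 1410 to 3971 and 1 to 4 in R6/2 x DREAM+/- against R6/2, 3954 to 6546 and 13 to 18 in R6/2 x DREAM+/- against wild type, and 0 to 1 and 0 in the interaction. Replicate numbers are shared by the genotypes. The deviations of arrays with the same number had a median correlation of 0.0532 over 24 pairs (lowest -0.461, highest 0.317). Over 72 pairs with different numbers it was -0.0075 (lowest -0.327, highest 0.376). Whether some numbers mark a shared batch cannot be told from these values. With the replicate number as a block, of all probe sets and of the 21, 4581 and 14 passed for R6/2 against wild type, 2382 and 12 for R6/2 x DREAM+/- against DREAM+/-, 784 and 0 for DREAM+/- against wild type, 2539 and 2 for R6/2 x DREAM+/- against R6/2, 5367 and 17 for R6/2 x DREAM+/- against wild type, and 0 and 0 for the interaction. Signal close to background limits Drd3, the dim probe sets of Adcy5 and Gnal, and Arpp21 1440429_at in R6/2.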

Other observations

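Markers of other cell types in the tissue were counted from lists, each gene by its brightest probe set. Over all genes, 7.44% were lower and 8.22% higher in R6/2 against wild type, and 4.71% and 3.63% on the DREAM+/- background. Of 9 striatal interneuron markers, 4 were lower in R6/2 against wild type (Slc18a3, Npy, Pvalb and Kit) and 6 in R6/2 x DREAM+/- against DREAM+/-, with 0 higher in either; their mean per array was 8.43 to 8.60 in R6/2 and 8.71 to 8.83 in wild type. Of 8 astrocyte markers, 2 were lower and 1 higher in R6/2 against wild type, and 2 were lower on the DREAM+/- background. Of 8 oligodendrocyte markers, Mobp, Mal and Ugt8a were lower in both comparisons and 0 were higher. The median change was -0.07 and -0.04 over 8 microglia markers and -0.04 and 0.03 over 6 endothelial markers in these comparisons, and C1qb of the microglia list was higher in both comparisons of DREAM genotype. The array means of 6 choroid plexus markers were spread widely, from 9.05 to 10.13 in R6/2 x DREAM+/- and from 7.52 to 9.18 in R6/2. Of 7 markers of neighbouring forebrain, 1 was lower in R6/2 against wild type and 5 in R6/2 x DREAM+/- against DREAM+/-. The 2 blood cell markers on the array had median changes of -0.08 and 0.02.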
